A study of Mus musculus with 13 samples.

Results

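The genes described here are 8 MAP kinase phosphatases and 2 Sprouty genes, Dusp1, Dusp2, Dusp4, Dusp5, Dusp6, Dusp7, Dusp10, Dusp16, Spry1 and Spry2, taken by symbol from an RNA-seq table of 17849 Ensembl genes. All 10 were in the table and all 10 passed the filter on low counts, as 12003 genes did. The cells were CD4+CD8+ double-positive thymocytes obtained by sorting, developing T cells that carry both coreceptors, and were either wild type or lacked Rad21 (Rad21 KO), one of the proteins of the cohesin ring, which holds DNA loops and sister chromatids together. There were 2 libraries per genotype, called knockout 1 and 2 and wild type 1 and 2 below. Their labels give no age, strain, deletion strategy or driver of the deletion, and do not say whether the replicates came from separate mice, so the spread behind each p-value may be technical. The series has 13 samples in all, which also cover binding of cohesin, NIPBL and Med1 and chromatin contacts, and its question here is how gene expression differs when cohesin is depleted.

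MAP kinases are switched on by phosphorylation of a threonine and a tyrosine in their activation loop, and dual-specificity phosphatases (DUSPs) switch them off by removing both phosphates. Many DUSP and Sprouty genes are themselves induced by MAP kinase signals, so their RNA forms part of a negative feedback loop. In double-positive thymocytes, signals from the T cell receptor reach the kinase ERK through the exchange factor RasGRP1 and Ras, and the strength and length of that signal bear on whether a cell survives selection.

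Depth and purity were as follows. Total counts ran from 6500819 to 9384505 per library. The genes Lars2 and Gm15564 together held 34.5% and 12.6% of them in knockout 1 and 2 and 5.84% and 7.47% in wild type 1 and 2. Levels are therefore given as CPM, counts divided by TMM-adjusted library totals, in which 1 count was worth 0.137 to 0.139 CPM. Rad21 itself stood at 67.9 and 65.7 CPM in the knockout libraries and at 271 and 233 CPM in wild type (log2 fold change -1.91, SE 0.12, edgeR adjusted p = 0.000862). All 8 genes fixed as markers of double-positive cells were detected in every library. Their summed level was 9612 and 8300 CPM in the knockout libraries and 13372 and 11997 CPM in wild type. Rag1, Rag2 and Dntt were past the threshold and lower, but Rag1 and Dntt were not called without knockout 2 or wild type 1. Genes listed as markers of other cells summed to 127 and 141 CPM in the knockout and 188 CPM in each wild type library over 18 genes. Most of it came from Pecam1, which fell from 149 to 99.5 CPM. The stromal genes Pdgfrb and Col1a1 stood at 2.07 and 1.10 CPM in wild type. The sum thus mostly follows Pecam1 and need not measure other cells. Of the 18, 1 to 4 were at 0 in each library and 9 were abundant enough to test. Of these 9, 1 was higher (11.1%, beside 7.60% of all tested genes) and 2 were lower (22.2%, beside 5.17%). The lower ones were Pecam1 and Itgam, an integrin of myeloid cells, which fell from 20.7 to 8.48 CPM (edgeR adjusted p = 0.0141). Itgam was not called without wild type 2. The higher one was Epcam, an epithelial adhesion molecule, with 69 and 84 counts in the knockout libraries and 11 and 7 in wild type. The other myeloid and dendritic genes tested did not pass and did not all fall. Mean levels in knockout and wild type were 4.01 and 3.16 CPM for Lyz2 and 4.34 and 3.16 CPM for Flt3. For Csf1r they were 2.35 and 2.82 CPM. The B cell gene Cd79a had 1 count in each knockout library and 6 and 7 in wild type, and Ms4a1, another B cell gene, had at most 1. The thymic epithelial regulator Foxn1 had at most 2 counts in any library. The part of other cells in the results below was not tested. In bulk RNA, fewer cells that use a gene and less RNA per cell cannot be told apart.

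Of the 10 genes, 6 rose in the Rad21 knockout and 0 fell, at an adjusted p of 0.05 over all genes tested. Across all tested genes 7.60% were called higher and 5.17% lower. The genes that rose were Dusp16, Spry1, Dusp5, Dusp1, Dusp2 and Dusp10, from 3.51-fold for Dusp16 to 1.31-fold for Dusp10. The median log2 fold change of the 10 genes was 0.56, beside -0.01 for all tested genes. Of the 10, Dusp16 and Spry1 passed the threshold and were at least 2-fold higher, as were 3.60% of tested genes. In 7 of the 10 both knockout libraries lay above both wild type libraries, as in 29.7% of tested genes. In 8 of the 10 the knockout and wild type libraries did not overlap, where 58.9% of tested genes did the same. Counts of the 10 genes summed to 1304 and 1444 CPM in the knockout libraries and 921 and 868 CPM in wild type.

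**Figure D1:**
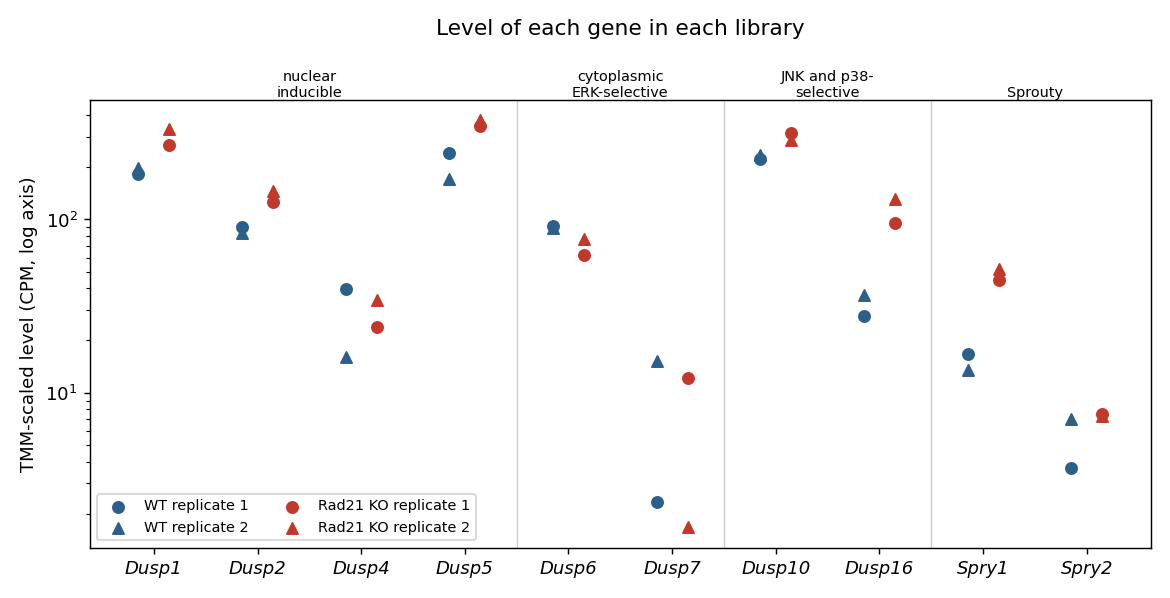
Level of each of the 10 genes in each library, in TMM-scaled CPM on a log axis, with wild type in blue and Rad21 KO in red, and replicate 1 as circles and replicate 2 as triangles. The red points lie above the blue ones for Dusp1, Dusp2, Dusp5, Dusp10, Dusp16, Spry1 and Spry2, below them for Dusp6, and among them for Dusp4 and Dusp7.

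Dusp1, Dusp2, Dusp4 and Dusp5 encode the nuclear phosphatases that mitogens, stress and receptor signals induce. Of these 4, 3 rose and Dusp4 did not pass the threshold. Dusp1, which acts on p38, JNK and ERK, had 269 and 334 CPM in knockout 1 and 2 and 184 and 198 CPM in wild type 1 and 2. Both knockout libraries lay above both wild type libraries (log2 fold change 0.66, SE 0.13, edgeR adjusted p = 0.0205). Dusp5, which is selective for ERK and holds it in the nucleus, had 345 and 373 CPM in the knockout and 242 and 171 CPM in wild type. Its groups did not overlap either, although the wild type pair differed 1.41-fold (log2 fold change 0.80, SE 0.16, edgeR adjusted p = 0.0250). Dusp2, also called PAC1, was found as a gene induced in activated lymphocytes. It had 127 and 147 CPM in the knockout and 91.0 and 83.6 CPM in wild type, again without overlap (log2 fold change 0.65, SE 0.12, edgeR adjusted p = 0.0180). Without wild type 2 the log2 fold change of Dusp2 was 0.58 and the call was lost (edgeR adjusted p = 0.0547).

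Dusp4, a close relative of Dusp1, had 175 and 247 counts in knockout 1 and 2 and 289 and 116 counts in wild type 1 and 2. The wild type libraries lay on either side of the knockout ones, 2.46-fold apart in CPM. The log2 fold change was 0.07 (SE 0.39, edgeR adjusted p = 0.931), and it was 0.86 without wild type 1 and -0.44 without wild type 2. No direction can be given for Dusp4 at this spread.

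The promoter sequences of Dusp1 and Dusp5 are shown because both genes rose and their windows hold letters recognised by signal-responsive factors. Promoter windows here are the 250 bases before the transcription start in RefSeq for GRCm38.p6, 5′ to 3′ on the gene's strand, and 9 of the 10 genes had one in the table used, Dusp4 being the exception. Capitals mark the cyclic AMP response element core TGACG, which also lies inside the full site TGACGTCA, and the CArG box bound by serum response factor, on either strand. The window of Dusp1 lay at chr17:26508473-26508722 on the minus strand and that of Dusp5 at chr19:53528895-53529144 on the plus strand.
Dusp1: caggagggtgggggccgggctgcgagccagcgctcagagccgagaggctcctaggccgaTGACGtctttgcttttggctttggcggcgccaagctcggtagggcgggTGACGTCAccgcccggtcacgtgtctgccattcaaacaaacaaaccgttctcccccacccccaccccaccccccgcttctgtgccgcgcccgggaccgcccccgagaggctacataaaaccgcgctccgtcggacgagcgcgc
Dusp5: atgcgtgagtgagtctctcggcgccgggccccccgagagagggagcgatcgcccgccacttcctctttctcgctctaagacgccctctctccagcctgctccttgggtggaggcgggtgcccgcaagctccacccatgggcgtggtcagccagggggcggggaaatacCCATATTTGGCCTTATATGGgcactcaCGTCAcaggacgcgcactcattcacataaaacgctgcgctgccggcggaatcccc
In Dusp1 the full site TGACGTCA began 143 bases before the start, and a core TGACG began 191 bases before it. The full site was in 1.56% of 32536 distinct mouse promoter windows of this length and in 3.01% of the 9100 tested genes that had a window. Here and below, a tested gene was counted if any of its windows held the motif, while the members had a single window each. In Dusp5 a pair of CArG boxes began 82 and 72 bases before the start and a reverse-strand core 55 bases before it. A CArG box was in 1.48% of windows and 1.37% of those tested genes, and 6 windows held 2 or more. Of the tested genes called higher, 1.43% held a CArG box and 3.87% the full site. Of those called lower, 1.26% and 1.88% did. No test was made of these shares. The marked stretches are matches of letters, and the factors were not measured at these genes.

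Dusp10 and Dusp16 encode phosphatases that prefer the stress kinases JNK and p38. Dusp16 had the largest change of the 10 genes. It stood at 95.4 and 131 CPM in knockout 1 and 2 and at 27.7 and 36.7 CPM in wild type 1 and 2. Each knockout library lay more than 2-fold above each wild type one, and replicates differed 1.37-fold and 1.32-fold (log2 fold change 1.81, SE 0.20, edgeR adjusted p = 0.00336). By size of rise Dusp16 was number 182 of the 12003 genes tested. Dusp10, which has a part in the cytokine output of T cells, had 317 and 286 CPM in the knockout and 223 and 236 CPM in wild type. The groups did not overlap, but the change was small (log2 fold change 0.39, SE 0.10, edgeR adjusted p = 0.0491). This call was the weakest of the 6: it was lost in 10 of 12 alternative settings, among them leaving out knockout 1 (0.33), wild type 1 (0.35) or wild type 2 (0.43), and it was kept in DESeq2 and without knockout 2. Within a library the Dusp16 count was 0.301 and 0.458 of the Dusp10 count in the knockout and 0.124 and 0.155 of it in wild type, a comparison that needs no scaling between libraries. As a share of the counts of the 10 genes, Dusp16 made up 7.32% (95% exact binomial interval 6.80 to 7.86) and 9.08% (8.53 to 9.64) in the knockout libraries and 3.01% (2.62 to 3.45) and 4.23% (3.75 to 4.76) in wild type.

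The window of Dusp16, shown as the promoter of the gene that changed most, lay at chr6:134792629-134792878 on the minus strand. It precedes a start 14435 bases inside the annotated 5′ end of the gene, so other starts of Dusp16 are not covered.
Dusp16: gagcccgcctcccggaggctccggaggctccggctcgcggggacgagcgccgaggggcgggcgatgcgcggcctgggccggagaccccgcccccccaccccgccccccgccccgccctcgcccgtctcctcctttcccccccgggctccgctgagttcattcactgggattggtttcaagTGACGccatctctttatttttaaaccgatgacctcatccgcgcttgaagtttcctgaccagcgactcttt
Capitals mark a TGACG core that began 70 bases before the start. The core was in 17.9% of all windows and in 30.7% of the tested genes that had one. The 3 members with it, Dusp1, Dusp5 and Dusp16, all rose, and so did Dusp2, Dusp10 and Spry1, which lack it. A GC box, GGGCGG on either strand, was in the windows of all 6 genes that rose. It was in 0 of the other 3 with a window (Dusp6, Dusp7 and Spry2). The GC box was in 33% of all windows and in 63.2% of tested genes, counted over any of a gene's windows. With 9 windows, nothing is read from this split. The E-box CACGTG was in the windows of Dusp1, where it began 126 bases before the start, and Dusp2, where it began 109 bases before it. It was in 6.04% of all windows and 9.98% of tested genes. 4 other motifs, each searched on both strands, were found in 0 of the 9 windows. The AP-1 site TGANTCA was in 6.73% of all windows and 5.03% of tested genes. The ETS motif was searched only as CCGGAA, which was in 12.1% of all windows and 25.9% of tested genes. Sites with other letters around GGAA were not searched. The windows of Dusp5 and Dusp6, for example, hold GGAA, so the absence of CCGGAA does not exclude ETS sites. The TATA box, searched as TATAAA, was in 12.3% and 7.81%. A κB site was in 3.92% of all windows and 5.32% of tested genes.

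Dusp6 and Dusp7 encode cytoplasmic phosphatases selective for ERK, and neither passed the threshold. Dusp6, a standard readout of ERK activity in many cells, stood at 62.0 and 77.1 CPM in knockout 1 and 2 and at 91.7 and 89.6 CPM in wild type 1 and 2. Both knockout libraries lay below both wild type libraries, which 29.2% of tested genes also did (log2 fold change -0.38, SE 0.14, edgeR adjusted p = 0.118). The Dusp6 value was negative in all 12 alternative settings, from -0.65 to -0.22, and past the threshold in 0 of them. As a share of the counts of the 10 genes, Dusp6 made up 4.76% (95% exact binomial interval 4.34 to 5.20) and 5.34% (4.92 to 5.79) in the knockout libraries and 9.95% (9.25 to 10.7) and 10.3% (9.59 to 11.1) in wild type. The Dusp5 count was 5.57 and 4.84 times the Dusp6 count in the knockout and 2.63 and 1.91 times in wild type. For Dusp1 over Dusp6 the ratios were 4.34 in each knockout library and 2.01 and 2.21 in wild type. Scaling between libraries does not enter these ratios, and no test was made of them. Dusp6, their base, had the lowest log2 fold change of the 10 genes. The fall in its share also reflects the higher sum of the 10 genes, 1304 and 1444 CPM in the knockout beside 921 and 868 CPM in wild type.

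**Figure D2:**
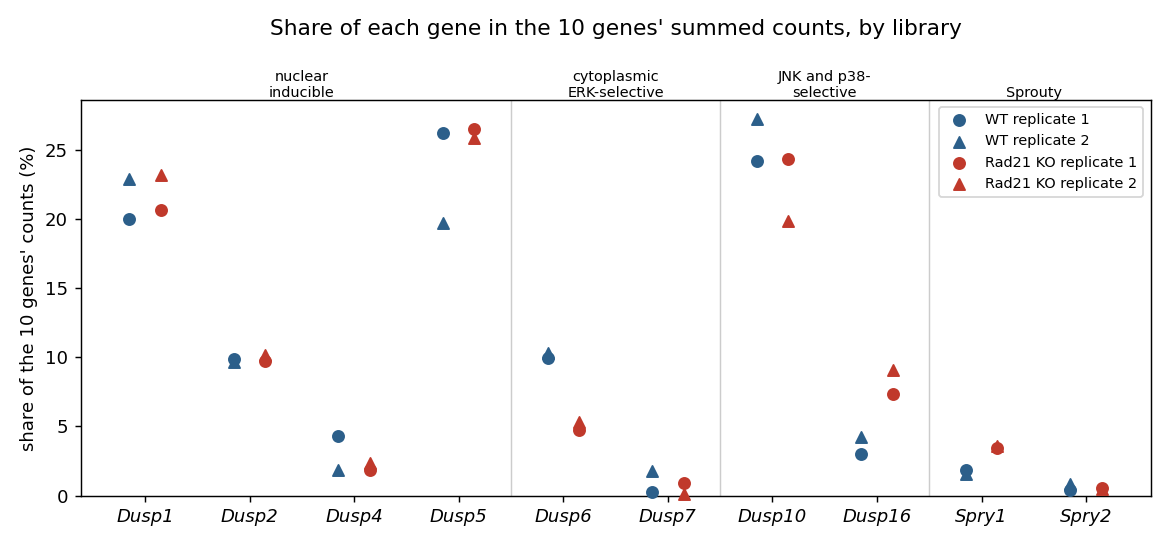
Share of each gene in the summed counts of the 10 genes, in percent, by library, with wild type in blue, Rad21 KO in red, replicate 1 as circles and replicate 2 as triangles. Dusp6 holds 9.95% and 10.3% in wild type and 4.76% and 5.34% in the knockout, while Dusp16 holds 3.01% and 4.23% in wild type and 7.32% and 9.08% in the knockout.

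The promoter window of Dusp6 at chr10:99262981-99263230, on the plus strand, is shown for comparison with the genes that rose. None of the motifs searched was found in it, so it has no capitals, and this says only that these letters are not in these 250 bases.
Dusp6: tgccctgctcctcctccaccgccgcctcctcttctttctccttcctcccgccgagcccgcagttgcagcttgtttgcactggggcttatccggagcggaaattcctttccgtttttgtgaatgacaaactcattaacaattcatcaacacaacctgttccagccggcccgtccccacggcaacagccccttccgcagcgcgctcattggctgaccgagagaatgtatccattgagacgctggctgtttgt

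Dusp7 was split by library and not by genotype. It had 89 and 12 counts in knockout 1 and 2 and 17 and 110 in wild type 1 and 2, or 12.2, 1.67, 2.32 and 15.2 CPM. Knockout 1 and wild type 2 were high and the other two low, 7.30-fold and 6.56-fold apart within a genotype. The median tested gene of at least 5 CPM differed 1.13-fold and 1.11-fold between the same libraries. The log2 fold change of -0.34 (SE 0.95, edgeR adjusted p = 0.851) therefore gives no direction: it was 1.57 without wild type 2, 0.49 without knockout 2, -1.13 without wild type 1 and -2.38 without knockout 1.

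Sprouty proteins act above the MAP kinases, between growth factor or antigen receptors and the kinase cascade. Spry1 rose and Spry2 did not pass the threshold. Spry1 had 44.9 and 52.0 CPM in knockout 1 and 2 and 16.8 and 13.4 CPM in wild type 1 and 2. The groups were well apart, with replicates within 1.25-fold of each other (log2 fold change 1.68, SE 0.17, edgeR adjusted p = 0.00260), and Spry1 was number 219 of 12003 by size of rise. Counting error alone put the ratio of knockout to wild type counts at 3.20 (95% interval 2.75 to 3.74). Spry2 rested on few counts, 55 and 53 in the knockout and 27 and 51 in wild type, or 7.53, 7.37, 3.69 and 7.06 CPM. The knockout libraries were above both wild type libraries, but wild type 2 nearly reached them (log2 fold change 0.47, SE 0.35, edgeR adjusted p = 0.429). Without wild type 1 the value was 0.07, and without wild type 2 it was 1.00.

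The Spry1 window is shown beside the Dusp16 one because these 2 genes changed most. It lay at chr3:37639697-37639946 on the plus strand.
Spry1: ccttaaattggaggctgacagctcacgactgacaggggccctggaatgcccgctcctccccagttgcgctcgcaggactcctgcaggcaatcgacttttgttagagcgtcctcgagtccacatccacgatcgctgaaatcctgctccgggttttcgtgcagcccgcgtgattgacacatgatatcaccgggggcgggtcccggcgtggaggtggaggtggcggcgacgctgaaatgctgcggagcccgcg
It held a GC box 60 bases before the start and none of the motifs marked by capitals.

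**Figure D3:**
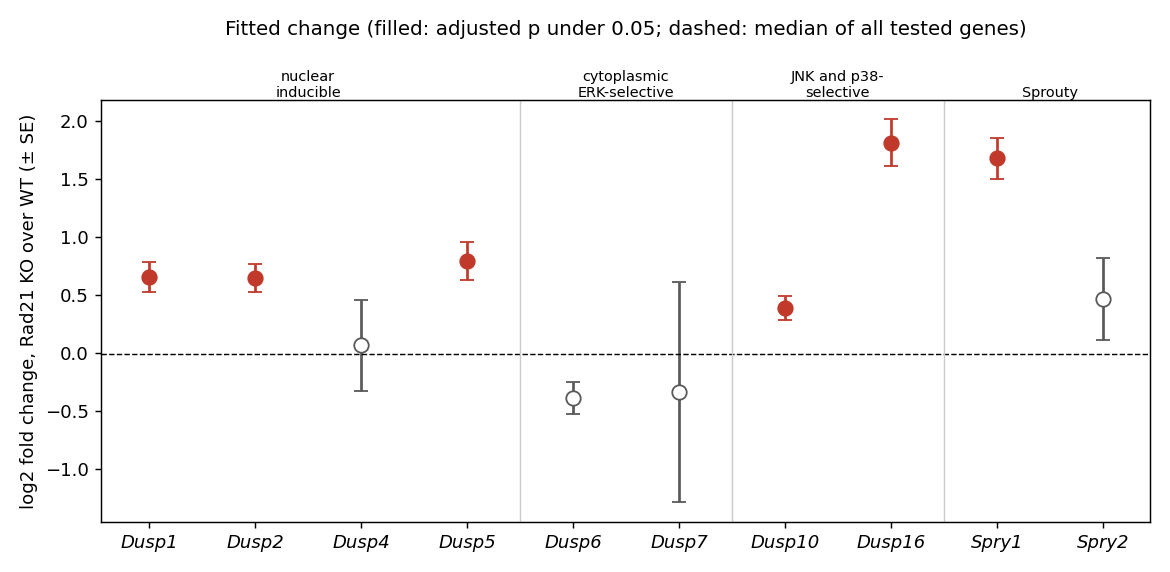
Fitted log2 fold change of Rad21 KO over wild type for each gene, with its standard error, from 2 libraries per genotype. Filled red points passed an adjusted p of 0.05, open points did not, and the dashed line is the median of all tested genes; Dusp16 at 1.81 and Spry1 at 1.68 stand highest, and the bar of Dusp7 is the widest.

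Dusp16 and Spry1 passed the threshold in all 12 alternative settings, with log2 fold changes from 1.56 to 2.03 and from 1.41 to 1.85. Dusp1 and Dusp5 passed in 10 of 12, among them all 4 fits that omit a library, with leave-one-out values from 0.51 to 0.81 and from 0.57 to 1.07. Scaling by library totals alone, which leaves the large Lars2 counts in the totals, moved the median of all genes by more than 0.1, to -0.29, and kept only Dusp16 and Spry1, as did testing every gene with no filter on low counts. With library totals alone, Dusp1, Dusp5 and Dusp2 had log2 fold changes of 0.40, 0.52 and 0.38, and Dusp10 0.10. Relative to the median of all genes they were at 0.69, 0.82 and 0.67, and Dusp10 at 0.39. Subtracting the median rescales the libraries again, so it is no separate check. With Lars2 and Gm15564 left out, 5 of the 10 genes were called, and Dusp10 had a log2 fold change of 0.38 (edgeR adjusted p = 0.0542).

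**Figure D4:**
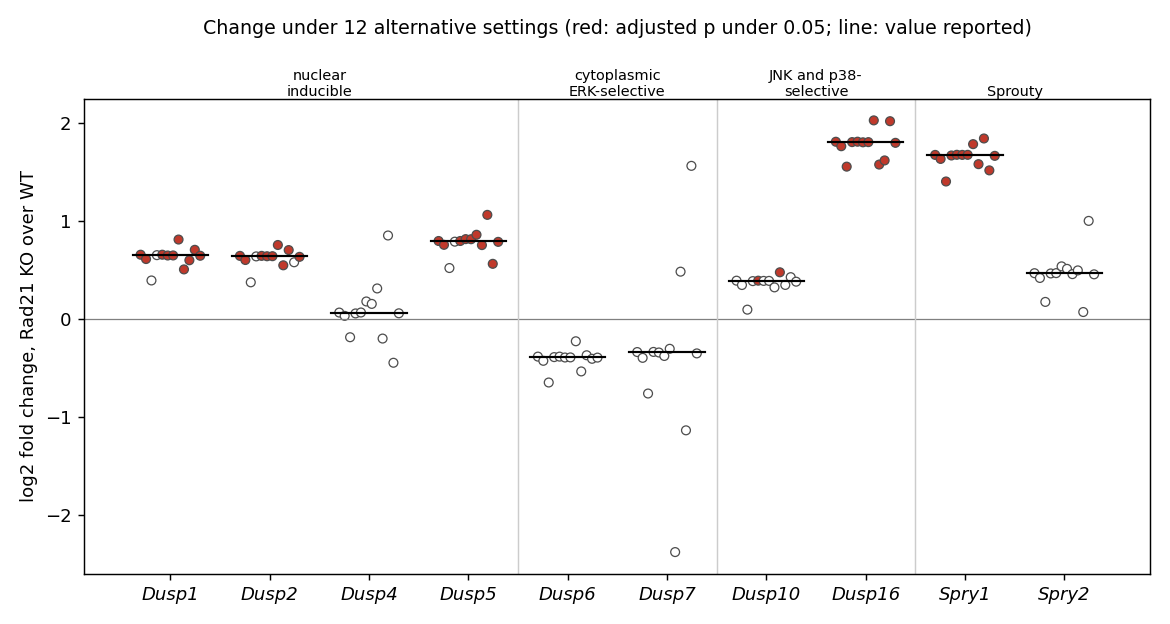
Log2 fold change of Rad21 KO over wild type for each gene in each of 12 alternative settings (points, red where the adjusted p was under 0.05) and as reported (line). All points of Dusp16 and Spry1 are red and above 1.4, all points of Dusp6 are open and below 0, and those of Dusp4 and Dusp7 lie on both sides of 0.

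Other phosphatases of the family and the Spred proteins, which brake Ras together with neurofibromin, were taken as a list of relatives. Of 19 such genes listed, 12 were abundant enough to test. Of these, 2 were higher (16.7%, beside 7.60% of all tested genes) and 0 lower (beside 5.17%), with a median log2 fold change of 0.14. With 2 calls, nothing particular to the family is read from these shares. Dusp8, the remaining JNK- and p38-selective MAP kinase phosphatase, had 152 and 134 counts in knockout 1 and 2 and 35 and 21 in wild type 1 and 2. Its knockout libraries stood at 20.8 and 18.6 CPM and its wild type libraries at 4.78 and 2.91 CPM (log2 fold change 2.35, SE 0.27, edgeR adjusted p = 0.00361, past the threshold in all 12 alternatives). Dusp8, Dusp10 and Dusp16 were thus all called higher, as 7.60% of all tested genes were, but the Dusp10 call was lost in 10 of 12 alternative settings. With so few genes, nothing is read about the class. Dusp18, an atypical phosphatase, had 50 and 80 counts against 12 and 24 (log2 fold change 1.85, SE 0.43). It was no longer called without knockout 2 (1.47) or wild type 1 (1.43). Dusp9, the third cytoplasmic ERK phosphatase, and Spry4 had at most 1 and 2 counts in any library, below the floor of 3 counts taken here. The filter on low counts left them untested. It also left out Dusp14, with 12 and 16 counts in the knockout and 2 and 3 in wild type. With Lars2 and Gm15564 left out, Dusp14 was tested and called higher (log2 fold change 2.42, SE 0.57, edgeR adjusted p = 0.0374). With no filter on low counts it was tested but not called (2.43). The same held without knockout 1 (2.64), wild type 1 (2.17) or wild type 2 (2.74).

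The kinases that these phosphatases act on, and the steps above them, were taken as 2 further lists. Of 23 genes of the Ras-ERK module 1 was higher (4.35%, beside 7.60% of all tested genes), 2 were lower (8.70%, beside 5.17%) and 20 did not pass, and the median log2 fold change was -0.02. These shares lie near those of all tested genes and say nothing particular about the module. All 3 called genes encode exchange factors of the RasGRP family, which load Ras with GTP. Rasgrp1 fell by 1.30 on the log2 scale (SE 0.12), from 1074 and 1132 CPM in wild type to 482 and 413 CPM. Rasgrp4 fell by 1.72 (SE 0.27), from 29.0 and 34.1 CPM to 12.2 and 6.95 CPM. Rasgrp2 rose from 127 and 144 CPM to 185 and 195 CPM (log2 fold change 0.49, SE 0.11), and was not called without knockout 2 (0.47) or wild type 1 (0.40).

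Of 19 tested genes of the JNK and p38 module, 2 were higher and 1 lower, beside 12.8% of all tested genes called in either direction, with a median log2 fold change of 0.15. Map2k3, a kinase that activates p38, had 307 and 403 counts in the knockout and 197 and 87 counts in wild type (log2 fold change 1.33, SE 0.34), and it was no longer called without knockout 2 (1.12). JNK1 (Mapk8) had 0.44 (SE 0.11) on the log2 scale, and was not called in any of the 4 fits that omit a library (0.41 to 0.50). JNK3 (Mapk10), at under 5 CPM in every library, had -1.80 (SE 0.41), and was not called on leaving out knockout 1 (-1.45) or either wild type library (-1.79 and -1.82).

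Of 23 tested genes for other brakes on Ras and MAP kinases, 18 did not pass, 3 were higher (13.0%, beside 7.60% of all tested genes) and 2 lower (8.70%, beside 5.17%), with a median log2 fold change of 0.11. With so few calls nothing particular to the list is read from these shares. Rasal3, a Ras GTPase-activating protein of blood cells, fell from 505 and 463 CPM in wild type to 337 and 296 CPM (log2 fold change -0.61, SE 0.11). Rasa1, another such protein, had -0.46 (SE 0.12), and was not called without knockout 2 (-0.34) or either wild type library (-0.46 in each case). Errfi1, an inhibitor of the epidermal growth factor receptor, had 0.81 (SE 0.19), and was not called without knockout 1 (0.74) or wild type 2 (0.57). Sh2b3, an adaptor that damps cytokine receptor signals, had 0.58 (SE 0.14), and was not called in any of the 4 fits that omit a library (0.55 to 0.60). Lrig1, named after its value was seen as the last called gene of this list, had 0.45 (SE 0.11), and leaving out knockout 1 (0.36) or either wild type library (0.42 and 0.48) ended its call.

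Of 21 tested genes that are commonly induced downstream of ERK, 11 were higher (52.4%, beside 7.60% of all tested genes). In the same list 1 was lower (4.76%, beside 5.17%), and the median log2 fold change was 0.74. Many phosphatase and Sprouty genes are also induced by MAP kinase signals. Whether such signals differed between the genotypes was not tested. The list was drawn up with earlier results of these libraries known. Fosl2, an AP-1 subunit, had 22.9 and 46.7 CPM in the knockout and 3.28 and 2.22 CPM in wild type (log2 fold change 3.65, SE 0.41). The urokinase receptor gene Plaur had 31 and 47 counts against 3 and 6 (3.09, SE 0.50), and Nr4a1, a nuclear receptor gene that antigen receptor signals switch on, rose (2.21, SE 0.13). Ier3, an early response gene, had 19 and 69 counts in the knockout and 4 and 0 in wild type, and it was no longer called without knockout 2 (3.18). The member that was lower, named after its value was seen, was Fos, the AP-1 subunit best known as an immediate ERK target (-0.53, SE 0.12), and was not called without knockout 1 (-0.40) or wild type 2 (-0.46).

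**Figure D5:**
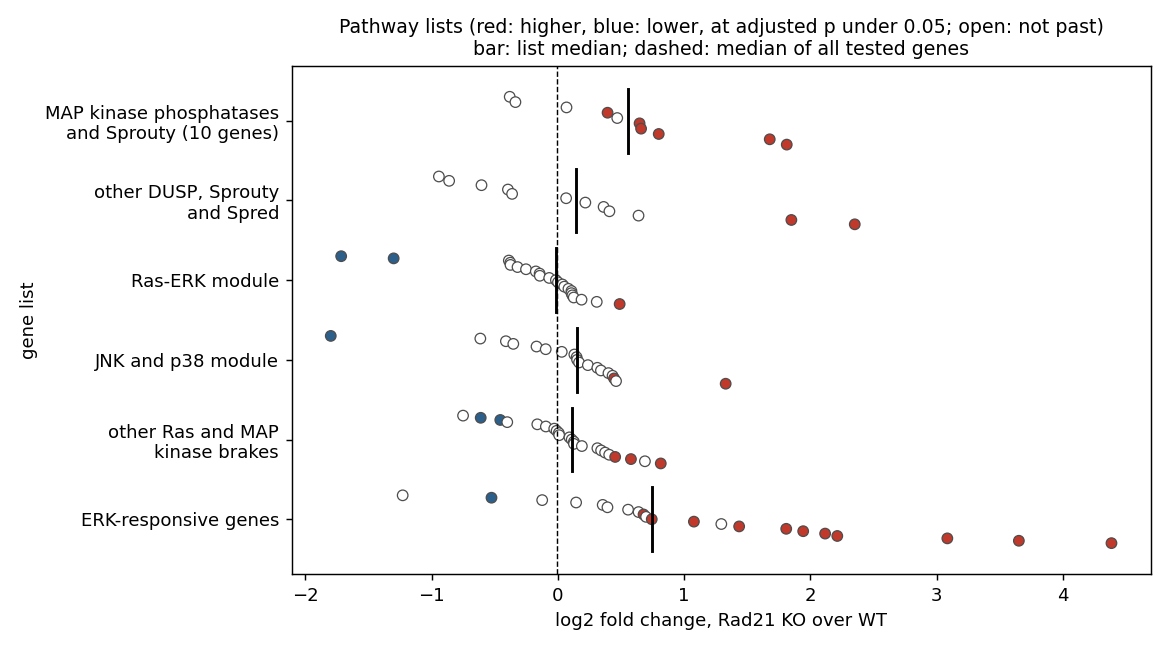
Log2 fold change of Rad21 KO over wild type for each tested gene of 6 lists, red where higher and blue where lower at an adjusted p under 0.05, open otherwise, with a bar at each list's median and a dashed line at the median of all tested genes. The list medians are 0.56 for the 10 genes and 0.74 for ERK-responsive genes, and between -0.02 and 0.15 for the other 4 lists.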

How the data were processed

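RNA-seq libraries were made from sorted cells after removal of ribosomal RNA (RiboMinus kit, TruSeq libraries), per the labels' protocols. The authors deposited whole-number values for each Ensembl gene, named count equivalents by their source and taken here as estimated counts, since library totals differ. The submitters' processing notes name the build mm9. Counting software and strand use were not given in the sources used here, and genes overlapping another transcript have uncertain counts. Symbols matched 17342 of 17849 identifiers. Peak lists were not used here, since no gene coordinates of their build were at hand.

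Counts were rounded and fitted in R 4.3.3 with edgeR 4.0.16: filterByExpr, TMM, quasi-likelihood test of genotype without a block, Benjamini-Hochberg over all 12003 tested genes, threshold 0.05. DESeq2 1.42.0 and voom in limma 3.58.1 were alternatives. Motifs were searched in Python 3.11.15 in RefSeq promoter windows. On simulated data the fit recovered most planted changes, while the share of false calls in that draw exceeded the threshold. The 10 genes, the lists, and the rule for naming genes (every member; up to 4 called genes of each list by size) were chosen with earlier results of these data known. Intervals on counts cover counting error only, since reads without molecular identifiers are not independent molecules.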

Additional observations from a re-analysis of the deposited data

How the results depend on the processing

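Of the 10 genes, the number called higher was 4 to 6 on leaving out a library, 5 or 6 under other size factors, limma-voom, DESeq2 and without Lars2 and Gm15564, and 2 with library totals alone or with no filter on low counts; 0 were called lower in any of these. Dusp4 changed sign with library totals alone (-0.18), and on leaving out 1 library it ranged from -0.44 to 0.86. Dusp7 ranged from -2.38 to 1.57 in the same way. Over all genes, 912 higher and 621 lower became 343 higher with library totals alone (28.7% of calls were higher there, against 59.5%), and 285 and 148 with no filter. Leaving out 1 library gave 574 to 880 higher and 373 to 558 lower.

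Same-numbered libraries did not deviate together (correlation 0.03), so the pairing by number is not used; with the number as a block 381 genes were lower, 5 of the 10 genes were higher, 0 and 0 genes of the JNK and p38 list were called, and 1 and 1 of the other brakes. With library totals alone, the calls were 0 higher in the Ras-ERK list, 1 higher for JNK and p38, 0 and 1 for other brakes and 2 lower for ERK-responsive genes. With no filter they were 0 and 1 for Ras-ERK, 0 and 0 for JNK and p38, 0 and 0 for other brakes, 6 and 0 for ERK-responsive genes, and 1 higher for the other phosphatases. With upper-quartile factors 1 gene was higher for JNK and p38 and 1 lower (Dusp11) among other phosphatases, and DESeq2 called 0 lower for JNK and p38. Leaving out 1 library gave 0 to 1 higher for Ras-ERK, 0 to 2 higher and 0 to 1 lower for JNK and p38, 0 to 2 higher and 1 to 3 lower for other brakes, 9 to 12 higher and 0 to 1 lower for ERK-responsive genes, and 1 to 2 higher for other phosphatases. The cause was not tested. The planned description of peaks near the 10 genes was not run. Few counts in at least 1 genotype lie behind the values of Spry2, Dusp18, Mapk10, Plaur and Ier3.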

Other observations

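The split of Dusp7 between replicates was rare in these libraries. Among 9817 tested genes that averaged 5 CPM or more and were detected in every library, replicates of both genotypes differed by at least 6.56-fold in 4 genes, chosen here for their values: Dusp7, Magi1, Kbtbd8 and the unnamed ENSMUSG00000093596. ENSMUSG00000093596 was split in the same direction as Dusp7, with knockout 1 above knockout 2 by 179-fold and wild type 1 at 0.0795 of wild type 2. Magi1, which encodes a scaffold protein of cell junctions, was split the other way. In Kbtbd8 replicate 1 was the higher in both genotypes. The smaller split of Dusp4, 1.43-fold or more in both genotypes, was met by 237 genes.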
